A study of Mus musculus with 108 samples.

Results

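The 4 tumour samples were microglia sorted from tumour-bearing brains labelled 5x2 Gy radiotherapy and D3, for day 3. They were compared with microglia from tumour-free mice whose sample titles carry the same 5x2 and D3 (3 samples). These 7 samples were chosen by their column names and make up 7 of the 108 samples of the series, which profiles myeloid cells of lung-to-brain metastases by RNA sequencing. All mice were of the Balb/C athymic nude strain, with the strain code CAnN.Cg-Foxn1nu/Crl, which is a strain without a thymus that lacks most T cells, and all cells were purified by flow cytometry from brain. The tumour-bearing samples have a radiotherapy label of 5x2 Gy, D3 and a tumour stage given as not stratified. The tumour-free samples have a tumour stage of none, and their radiotherapy label is also none, against the 5x2 in their titles. Whether they were irradiated is therefore not settled by the labels, and the comparison is described here as tumour-bearing against tumour-free, with the conflict kept in view. The labels name no tumour cell line, and nothing says whether samples of a group came from separate mice. The p-values therefore reflect only how far samples vary within groups, part of which may be technical. That spread was estimated over all 34 microglia samples of the series and not from the 7 samples alone.

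Microglia are the resident macrophages of the brain. In the undisturbed brain they express a set of homeostatic genes, among them the purinergic receptor P2ry12, the membrane protein Tmem119 and the transcription factor Sall1, and around plaques, demyelinated lesions and tumours they take on a lipid-handling, phagocytic profile known as disease-associated, with Apoe, Spp1, Cst7 and Itgax as hallmarks. They also answer type I interferon with antiviral genes and toll-like receptor ligands with cytokines and chemokines. Ionising radiation is known for inducing targets of the transcription factor p53, such as Cdkn1a and Mdm2, in most cell types.

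Total counts of the 7 samples lay between 9796784 and 14973034, and 4 samples stood apart in ways that bear on the results. Tumour sample 1 had counts in 30967 genes, against 17967 to 21327 in the other 6. Its olfactory and vomeronasal receptor genes held 474.8 per 1000000 total counts, without scaling, against 13.9 to 41.93 in the other 6. Elsewhere CPM stands for counts per 1000000 with TMM scaling. In tumour sample 4, ribosomal protein genes took 0.933% of the counts, against 0.2463% to 0.3759% in the other 6, and transcripts of monocytes and antigen-presenting cells were high. Tumour-free samples 2 and 3 were high in choroid plexus and astrocyte transcripts and correlated with each other at 0.975 (Pearson's r of log2 CPM across genes, a description), while tumour-free sample 1 correlated with them at 0.936 and 0.918 and with the 4 tumour samples at 0.915 to 0.955. The tumour-free reference was thus deep but not uniform. In bulk samples fewer cells of a type and less RNA per cell cannot be told apart.

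Of 19754 genes tested, 825 were higher in tumour-bearing samples (4.18%) and 1009 were lower (5.11%) by edgeR's quasi-likelihood test at an adjusted p under 0.05. Without regard to a test, all 4 tumour samples lay above all 3 tumour-free samples for 12.3% of genes and below them for 11.6%. Among the 825 higher genes, the groups did not overlap for 795, and among the 1009 lower genes for 706. Tumour-free sample 1 differed from the other tumour-free samples mainly in the genes that fell. It was below 0.5 times the mean of samples 2 and 3 for 829 of the 1009 lower genes (82.2%), for 27 of the 825 higher genes (3.27%) and for 13.7% of all genes tested. Against tumour-free sample 1 the median difference in log2(CPM + 0.5) was 1.63 over the higher genes and -0.97 over the lower genes, and against samples 2 and 3 it was 1.81 and -3.66. Leaving out tumour-free sample 2 gave 398 higher and 588 lower genes, and leaving out tumour-free sample 3 gave 413 and 470. Without tumour sample 2 there were 605 lower genes, and without tumour sample 4 there were 657. Against tumour-free sample 1 alone, all 825 higher genes and 854 of the 1009 lower genes kept their sign in log2(CPM + 0.5). These genes had been called with that sample in the reference, so the shared sign is partly built in and is no independent support. Without the 5 microglia samples of low depth or over 30000 genes detected, tumour sample 1 among them, 1365 genes were higher and 1974 lower.

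**Figure D1:**
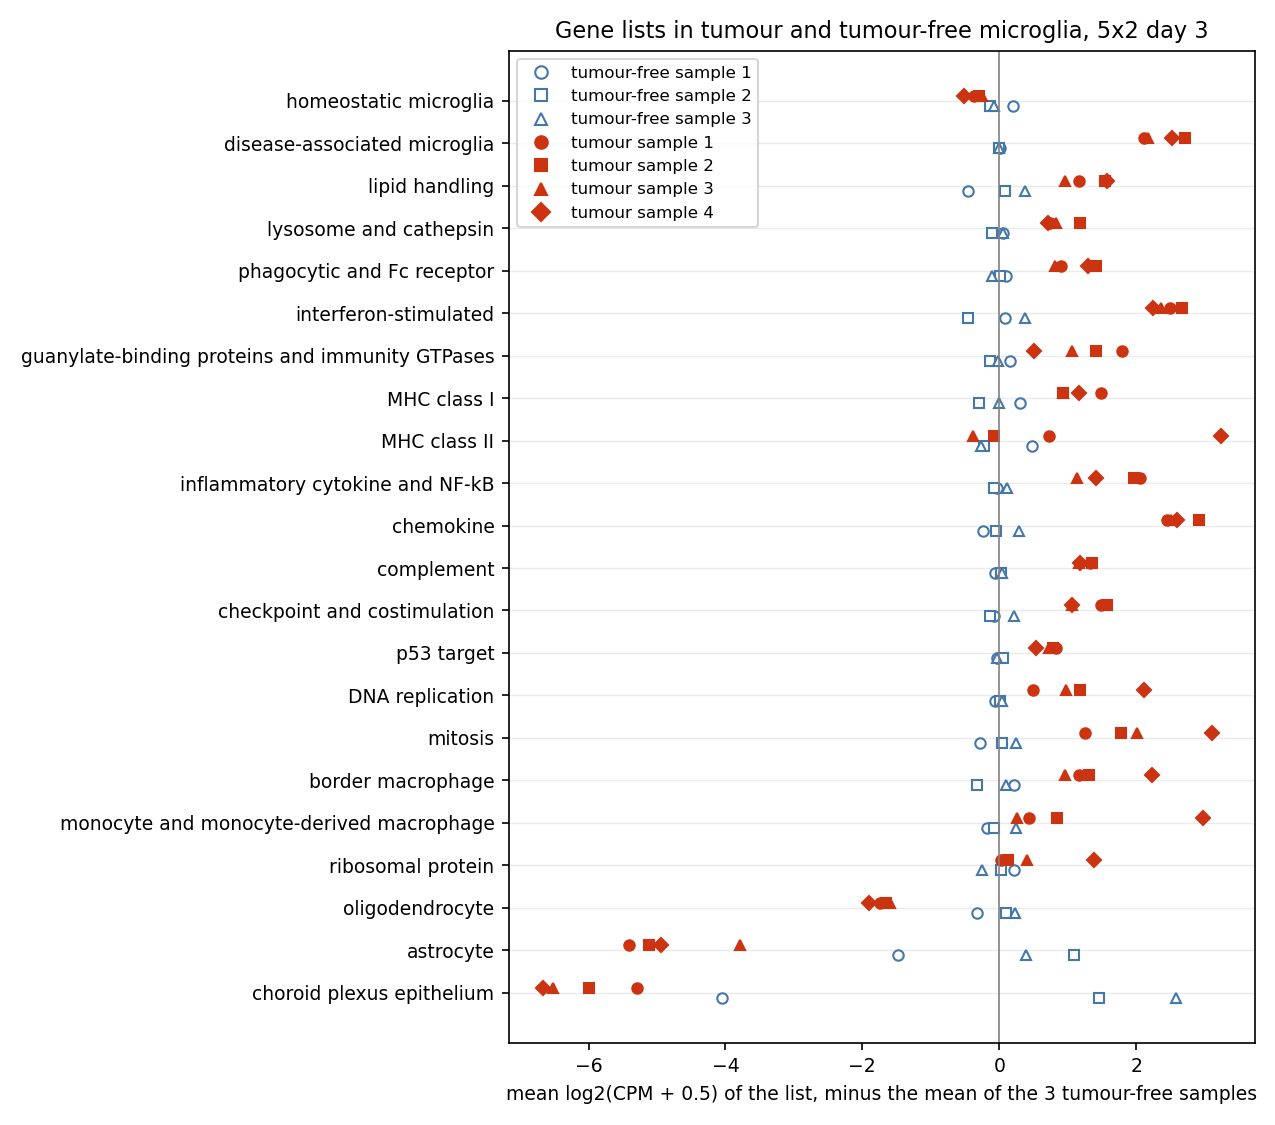
Level of 22 gene lists in each sample, as the mean of log2(CPM + 0.5) over the listed genes minus the mean of the 3 tumour-free samples (x axis, log2 units). Blue open symbols are the tumour-free samples and red filled symbols the tumour samples, with the symbol giving the sample number. The interferon-stimulated, chemokine and disease-associated lists were higher in all 4 tumour samples, tumour sample 4 stood apart for the MHC class II and monocyte lists, and tumour-free sample 1 lay between the groups for the astrocyte and choroid plexus lists. The choroid plexus list was chosen after the values were seen.

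The sorted cells carried microglial genes in every sample. P2ry12, which senses nucleotides released from injured cells, measured 4285, 3139.7 and 3158 CPM in tumour-free samples 1, 2 and 3 and 2246, 2140.3, 2546 and 1534 CPM in tumour samples 1, 2, 3 and 4. Tmem119 measured 3559, 2983 and 2858 CPM without tumour and 1951, 1810.3, 2393 and 1600.3 CPM with tumour. Both genes were lower in each tumour sample than in each tumour-free sample, but neither passed the test (P2ry12 log2 fold change -0.74, adjusted p = 0.251, and Tmem119 -0.69, adjusted p = 0.0903). The fractalkine receptor Cx3cr1 overlapped between the groups, with a log2 fold change of 0.01. Of 22 homeostatic genes, 4 fell and none rose, with a median log2 fold change of -0.26 against 0.07 over all genes tested.

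The homeostatic genes that fell were Selplg, Slc2a5, Crybb1 and Sall1. Selplg, the selectin ligand PSGL-1, measured 3676, 2974 and 3214 CPM without tumour and 1425, 1328, 1892 and 1230.3 CPM with tumour, with no overlap (log2 fold change -1.16 ± 0.25 (SE), adjusted p = 0.00244). Slc2a5, a fructose transporter, measured 259, 205 and 410.1 CPM without tumour and 64.1, 92.9, 102 and 99.3 CPM with tumour (log2 fold change -1.70 ± 0.46 (SE), adjusted p = 0.0151). Neither gene overlapped between the groups. Sall1, a transcription factor that maintains microglial identity, measured 372, 302 and 307 CPM without tumour and 166, 157, 211 and 127 CPM with tumour (log2 fold change -0.99 ± 0.32 (SE), adjusted p = 0.0493). The call of Sall1 was lost on leaving out any sample other than tumour sample 3 (adjusted p from 0.0794 to 0.147), and that of Slc2a5 on leaving out tumour-free sample 3 (adjusted p = 0.142). Crybb1, a crystallin expressed by microglia, measured 111, 86.8 and 155 CPM without tumour and 35.01, 45.2, 32.3 and 68.9 CPM with tumour (log2 fold change -1.37, adjusted p = 0.0359), and its call was lost without tumour sample 1, 2 or 3 or tumour-free sample 1 or 3 (adjusted p from 0.0568 to 0.222). Between 1 and 3 of the 22 genes were called when a sample was left out, with 1 without tumour-free sample 3 and 2 without tumour-free sample 1 or tumour sample 1 or 2.

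Disease-associated genes rose almost as a whole: 21 of 24 were higher in tumour-bearing samples, none fell, and the median log2 fold change was 1.75. Cst7, which encodes the cathepsin inhibitor cystatin F, measured 11.6, 6.27 and 9.96 CPM without tumour and 512, 971, 843 and 722 CPM with tumour. Spp1 (osteopontin, a secreted matrix glycoprotein; chromosome 5, 104435118 to 104441050, forward strand of GRCm38) measured 95.5, 109 and 63.4 CPM without tumour and 4225, 8309.9, 3411 and 4409 CPM with tumour. The lowest tumour sample was far above the highest tumour-free sample for both genes. Cst7 rose (log2 fold change 6.36 ± 0.64 (SE), adjusted p = 3.10e-07), and so did Spp1 (log2 fold change 5.83 ± 0.76 (SE), adjusted p = 8.99e-06).

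Apoe, the main lipid carrier of the brain, was abundant in both groups, at 1072, 1663 and 1977 CPM without tumour and 10512, 12323, 6885 and 7453 CPM with tumour, and rose (log2 fold change 2.56 ± 0.36 (SE), adjusted p = 2.63e-05). Itgax, which encodes CD11c, measured 5.16, 7.51 and 6.36 CPM without tumour and 74.9, 88.3, 70.8 and 150.1 CPM with tumour (log2 fold change 3.92 ± 0.48 (SE), adjusted p = 4.06e-06). The receptor kinase Axl, which binds phosphatidylserine on dying cells through Gas6, measured 56.2, 70.9 and 52.5 CPM without tumour and 784, 1231, 563 and 535 CPM with tumour (log2 fold change 3.70 ± 0.45 (SE), adjusted p = 4.06e-06). None of these 3 genes overlapped between the groups. The lipoprotein lipase Lpl (log2 fold change 4.96), the growth factor Igf1 (4.58), the lectins Lgals3 (3.92) and Clec7a (3.58), and the fatty acid binding protein Fabp5 (3.69) rose as well. At the lower end were Trem2 (0.72) and its signalling partner Tyrobp (0.67), also called. Gpnmb (2.57), Ank (1.00) and Cd68 (0.60) did not pass the test. Between 14 and 20 of the 24 genes were called when a sample was left out.

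**Figure D2:**
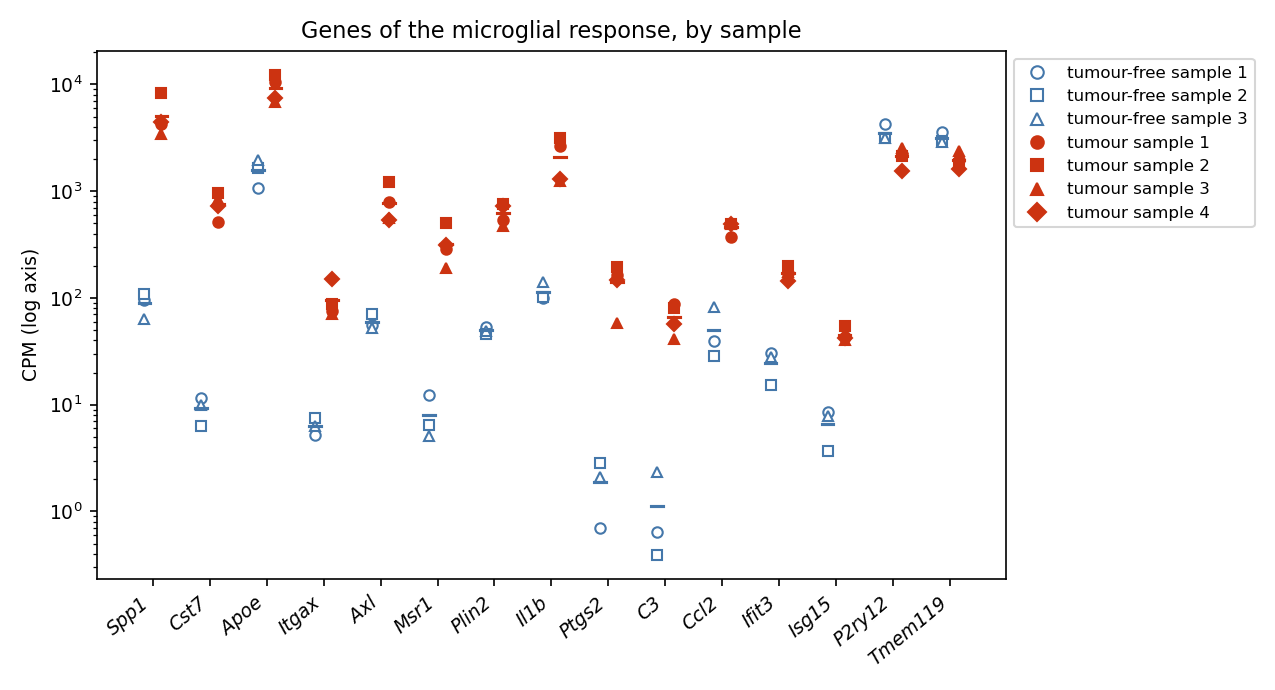
CPM of 15 genes in each sample on a log axis. Blue open symbols are the 3 tumour-free samples, red filled symbols the 4 tumour samples, and bars the group means. The groups do not overlap for any of the 15 genes, with P2ry12 and Tmem119 lower in tumour samples and the others higher.

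Mmp12, Hpse, Cd5l and Trim30d were also among the 15 largest rises. The metalloproteinase Mmp12 measured 1.13, 0.980 and 1.20 CPM without tumour and 106, 102, 24.9 and 212 CPM with tumour (log2 fold change 6.64 ± 0.93 (SE), adjusted p = 2.61e-05). Hpse, the heparanase that cleaves heparan sulphate, measured 0.990, 0.784 and 0.495 CPM without tumour and 49.8, 77.4, 45.2 and 66.9 CPM with tumour (log2 fold change 6.28 ± 1.05 (SE), adjusted p = 2.05e-04). The groups were far apart for both, with Mmp12 lowest in tumour sample 3. Cd5l, a secreted scavenger receptor protein of macrophages, measured 0, 0.131 and 0.283 CPM without tumour and 2.74, 8.75, 5.89 and 30.9 CPM with tumour (log2 fold change 6.35 ± 1.54 (SE), adjusted p = 0.00648) and was highest in tumour sample 4. Trim30d measured 0.990, 0.261 and 0.565 CPM without tumour and 6.85, 97.1, 50.9 and 13.7 CPM with tumour (log2 fold change 6.11 ± 1.64 (SE), adjusted p = 0.0142), a call lost without tumour-free sample 2 or 3.

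Of 19 lipid handling genes tested, 10 rose and 3 fell, with a median log2 fold change of 1.26. Msr1, a scavenger receptor for modified lipoproteins, measured 12.3, 6.40 and 5.09 CPM without tumour and 285, 506, 192 and 310.5 CPM with tumour (log2 fold change 5.35 ± 0.81 (SE), adjusted p = 7.67e-05). Plin2, which coats lipid droplets, measured 53.7, 46.2 and 49.1 CPM without tumour and 539.8, 751, 472 and 721 CPM with tumour (log2 fold change 3.64 ± 0.45 (SE), adjusted p = 4.06e-06). Abca1, the cholesterol exporter, measured 336, 238 and 277 CPM without tumour and 1462, 1510.1, 1162 and 866 CPM with tumour (log2 fold change 2.14 ± 0.21 (SE), adjusted p = 2.36e-07). The groups were apart for all 3 genes. Ch25h, which makes 25-hydroxycholesterol, rose from 1.98, 0.131 and 4.52 CPM to between 89.2 and 178 CPM (log2 fold change 6.06, adjusted p = 8.62e-04), and Abcg1 (2.36), Cd36 (3.36), Soat1 (1.70), Lipa (1.26), Npc2 (0.87) and Apoc4 (6.56) rose too. The falls included Sqle (-2.32), of sterol synthesis, and Scd2 (-1.03), of fatty acid synthesis. Of the 3 falls, 1 was called when tumour-free sample 2 or tumour sample 2, 3 or 4 was left out.

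Lysosomal genes rose by less. Of 20, 10 rose and none fell, with a median of 0.77, and 6 were called without tumour-free sample 2. Ctsb, a cathepsin counted with the disease-associated list, measured 2403, 2079 and 2324 CPM without tumour and 6169, 8415, 6873 and 5805 CPM with tumour (log2 fold change 1.59 ± 0.17 (SE), adjusted p = 6.66e-07). Among the lysosomal list, the alpha-galactosidase Gla (2.53), cathepsins Ctsh (1.18) and Ctse (3.10), the proton pump subunit Atp6v0d2 (5.39) and progranulin Grn (1.05) were higher. Of 17 phagocytic and Fc receptor genes, 6 rose and 1 fell (median 0.73), and 3 rose without tumour-free sample 2. The activating IgG receptor Fcgr4 measured 19.7, 21.8 and 13.5 CPM without tumour and 118, 208, 136 and 225 CPM with tumour (log2 fold change 3.23 ± 0.60 (SE), adjusted p = 5.40e-04), and the inhibitory IgG receptor Fcgr2b rose by 1.396. Tyro3, related to Axl, fell by 3.91, a call that was lost without tumour-free sample 2 or 3 or without tumour sample 2, 3 or 4.

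Interferon-stimulated genes rose together. Of 30 genes, 28 rose and none fell, with a median log2 fold change of 2.60, and all 4 tumour samples lay above all 3 tumour-free samples for all 30. Isg15, a ubiquitin-like modifier, measured 8.49, 3.66 and 7.84 CPM without tumour and 42.9, 54.5, 40.5 and 42.2 CPM with tumour (log2 fold change 2.76 ± 0.45 (SE), adjusted p = 1.48e-04). Ifit1, which binds foreign RNA ends, measured 8.27, 3.27 and 5.72 CPM without tumour and 71.6, 87.4, 68.9 and 52.7 CPM with tumour (log2 fold change 3.61 ± 0.63 (SE), adjusted p = 3.02e-04). Oas1a, an oligoadenylate synthetase that senses double-stranded RNA, measured 16.5, 6.86 and 10.4 CPM without tumour and 65.6, 76.4, 68.5 and 89.8 CPM with tumour (log2 fold change 2.74 ± 0.47 (SE), adjusted p = 3.02e-04). Tumour samples lay within 2-fold of each other for these genes, and tumour-free sample 2 was the lowest of its group for each. The antiviral enzyme Rsad2 (4.43), the nucleic acid sensor Zbp1 (3.56), the chemokine Cxcl10 (2.73), the GTPase Mx1 (2.63) and the transcription factors Irf7 (2.56) and Stat2 (1.37) were among the risers. Irf9 (0.44) and Ddx58 (0.70) did not pass. Between 18 and 28 genes were called when a sample was left out, with 18 without tumour-free sample 2.

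Interferon-stimulated promoters often carry the interferon-stimulated response element, bound by a complex that holds Stat2 and Irf9. The pattern GAAANNGAAA was sought on both strands in the 250 bases before each start site in RefSeq's promoter table (GRCm38.p6), where occurrences may overlap each other. It was found for 11 of the 22 listed interferon-stimulated genes that the table holds (50%) and for 9 of 9 guanylate-binding protein and immunity GTPase genes, against 3.46% of 27025 genes in the table. Among the genes called higher it was present for 9.06% of 607, among those called lower for 2.66% of 752, and for 0 of 15 homeostatic genes. A match is a description of these letters and not evidence of binding. The last 120 bases before the start are shown for 4 genes of these lists that rose, with the pattern, on either strand, in capitals:
Isg15, chr4:156200819-156200938, reverse strand: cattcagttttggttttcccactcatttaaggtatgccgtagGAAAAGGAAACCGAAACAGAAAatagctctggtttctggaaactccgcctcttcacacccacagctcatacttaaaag
Ifit1, chr19:34640769-34640888, forward strand: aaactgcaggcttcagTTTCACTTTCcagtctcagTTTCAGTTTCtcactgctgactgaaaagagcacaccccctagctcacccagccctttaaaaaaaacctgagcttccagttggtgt
Oas1a, chr5:120907526-120907645, reverse strand: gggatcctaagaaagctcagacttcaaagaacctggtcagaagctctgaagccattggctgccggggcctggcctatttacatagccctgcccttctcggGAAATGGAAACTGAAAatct
Irgm1, chr11:48871421-48871540, reverse strand: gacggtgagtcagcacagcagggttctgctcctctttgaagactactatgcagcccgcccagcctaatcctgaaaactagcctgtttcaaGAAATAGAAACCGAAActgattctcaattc

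In Isg15, Oas1a and Irgm1 the occurrences overlap one another in a run, and in Ifit1 2 of them lie apart on the reverse strand. Irgm1, a GTPase of intracellular defence, measured 106, 76.6 and 66.6 CPM without tumour and 223, 225, 206 and 168 CPM with tumour (log2 fold change 1.30 ± 0.29 (SE), adjusted p = 0.00283). Of 13 tested guanylate-binding protein and immunity GTPase genes, 4 rose: Irgm1, Gbp2 (2.28), Gbp6 (3.999) and Iigp1 (4.11), with a median over the 13 of 1.30. Iigp1 measured 0.990, 0 and 1.48 CPM without tumour and 18.1, 26.1, 12.5 and 0.353 CPM with tumour, so that tumour sample 4 lay within the tumour-free range, and its call was lost without tumour-free sample 2 (adjusted p = 0.051).

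Genes of MHC class I presentation rose in part, 8 of 15, with a median of 0.95. The classical heavy chain H2-D1 measured 169, 37.6 and 286 CPM without tumour and 579.8, 752, 524 and 409 CPM with tumour (log2 fold change 1.79 ± 0.43 (SE), adjusted p = 0.00588), and its partner B2m rose by 0.87. The non-classical chains H2-Q6 (3.21) and H2-Q7 (3.25) and the transactivator Nlrc5 (2.60) changed more. The peptide transporter subunit Tap1 rose (0.95), while Tap2 (-0.03) and the immunoproteasome subunits Psmb8 (0.53), Psmb9 (0.20) and Psmb10 (-0.04) did not pass. Counts were 4 without tumour-free sample 2 and 5 without tumour-free sample 3 or tumour sample 4. Genes of the H2-Q cluster are near-identical, and reads may have been split or dropped between them.

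Inflammatory genes rose in 12 of 22 cases, with no fall and a median of 1.69. Il1b, the cytokine interleukin 1 beta, measured 101, 102 and 141 CPM without tumour and 2642, 3147, 1236 and 1313 CPM with tumour (log2 fold change 4.18 ± 0.54 (SE), adjusted p = 6.77e-06). Its antagonist Il1rn measured 1.84, 1.76 and 8.97 CPM without tumour and 150.5, 106, 38.6 and 69.8 CPM with tumour (log2 fold change 4.44 ± 0.80 (SE), adjusted p = 4.24e-04). Ptgs2, the inducible cyclooxygenase, measured 0.707, 2.87 and 2.12 CPM without tumour and 165, 194, 58.4 and 148 CPM with tumour (log2 fold change 6.20 ± 0.77 (SE), adjusted p = 4.54e-06). For Il1b, tumour samples 1 and 2 were well above samples 3 and 4, and all 4 were above the tumour-free range. The receptor Tlr2 (2.62), Tnf (2.58), Il1a (1.64), and the NF-kB pathway genes Tnfaip3 (2.22), Nfkbiz (2.10), Nfkb2 (1.45) and Rel (1.21) rose too. Il6 (-0.35), Il18 (-0.25), Nos2 (4.01), Il12b (2.44) and Il23a (2.04) did not pass the test.

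Chemokines rose in 12 of 16 cases, with a median of 2.61. Ccl2, which attracts monocytes through Ccr2, measured 39.9, 28.3 and 82.1 CPM without tumour and 373, 492, 498 and 490.5 CPM with tumour (log2 fold change 3.21 ± 0.50 (SE), adjusted p = 1.10e-04). Ccl3 measured 184, 132 and 255 CPM without tumour and 1193, 1248, 809 and 831 CPM with tumour (log2 fold change 2.42 ± 0.39 (SE), adjusted p = 1.40e-04), and Cxcl16, a membrane-bound scavenger of oxidised lipids, 89.7, 65.3 and 61.7 CPM without tumour and 416, 355, 332 and 325 CPM with tumour (log2 fold change 2.30 ± 0.25 (SE), adjusted p = 6.66e-07). Tumour samples lay within 2-fold of each other for these 3 genes and none overlapped the tumour-free samples. Cxcl13, a B cell attractant, varied most: 0, 1.31 and 13.4 CPM without tumour and 119.9, 1547, 1096 and 15.7 CPM with tumour (log2 fold change 7.15 ± 1.95 (SE), adjusted p = 0.0163). Tumour sample 4, at 15.7 CPM, was close to tumour-free sample 3, at 13.4 CPM, and the call was lost without tumour-free sample 1 (adjusted p = 0.0641) or 2 (adjusted p = 0.101). Ccl8 (6.56), Cxcl9 (6.35), Ccl7 (4.25), Cxcl2 (4.03) and Cxcl1 (3.44) also rose. Ccl9, Ccl22, Ccl24 and Cxcl14 did not pass.

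Complement genes rose in 8 of 15 cases (median 0.86), most at the level of C3 and C4 and least for C1q. C3, the central component, measured 0.636, 0.392 and 2.33 CPM without tumour and 88.7, 80.6, 41.6 and 56.9 CPM with tumour (log2 fold change 5.90 ± 0.64 (SE), adjusted p = 6.66e-07). C4b measured 5.09, 6.73 and 8.05 CPM without tumour and 249, 162, 98.3 and 69.7 CPM with tumour (log2 fold change 4.44 ± 0.58 (SE), adjusted p = 8.99e-06). The groups were far apart for both. C1qb, by contrast, was abundant in all samples, at 2732, 2292 and 1868 CPM without tumour and 3060.1, 3574, 3379 and 3274 CPM with tumour, and rose by 0.53 (adjusted p = 0.0315). That call was lost without tumour-free sample 2 or 3 or without tumour sample 2, 3 or 4. The complement count was 3 without tumour-free sample 2 or 3 and 5 without tumour sample 2 or 3.

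Of 12 checkpoint and costimulation genes, 5 rose (median 1.32). Cd274, which encodes PD-L1, measured 16.97, 14.1 and 15.05 CPM without tumour and 88.8, 69.7, 54.6 and 60.4 CPM with tumour (log2 fold change 2.15 ± 0.39 (SE), adjusted p = 4.90e-04). Cd83 measured 358, 385 and 491 CPM without tumour and 4239.7, 4322, 1449 and 898 CPM with tumour (log2 fold change 2.73 ± 0.52 (SE), adjusted p = 7.12e-04), with tumour samples 1 and 2 above 3 and 4. Tnfsf9, the ligand of 4-1BB, rose as well (log2 fold change 3.49 ± 0.75 (SE), adjusted p = 0.00229). Cd80 (0.49), Cd86 (0.73) and Cd40 (1.90) did not pass. T cell transcripts were close to absent: summed over 12 T and NK cell genes, levels ran from 0.564 to 4.22 CPM in all 7 samples, and none of the 8 genes tested was called.

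MHC class II calls rested on tumour sample 4. Cd74, the invariant chain that guides class II molecules, measured 102, 51.7 and 91.1 CPM without tumour and 209.5, 153, 92.7 and 1833 CPM with tumour. H2-Eb1 measured 11.3, 6.66 and 11.8 CPM without tumour and 13.8, 17.8, 15.3 and 572 CPM with tumour, and H2-Aa 3.32, 1.176 and 2.54 CPM without tumour and 5.17, 5.55, 3.32 and 97.4 CPM with tumour. Tumour samples 1 to 3 were near the tumour-free samples for these genes and tumour sample 4 was far above all others. With all samples, 3 of 10 class II genes were called higher, H2-Eb1 (3.96, adjusted p = 0.0336), H2-Aa (3.57, 0.0151) and Cd74 (2.81, 0.0308). Without tumour sample 4 none was, and their log2 fold changes were 0.66, 0.99 and 0.90 (adjusted p = 0.726, 0.439 and 0.464). The count was also 0 without tumour-free sample 2 or 3 and 1 without tumour-free sample 1.

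Summed over 18 monocyte and monocyte-derived macrophage genes, levels were 135, 126 and 174 CPM without tumour and 262, 602, 204 and 1751 CPM with tumour. Ccr2, the receptor that defines inflammatory monocytes, measured 21.99, 9.93 and 19.4 CPM without tumour and 4.96, 17.02, 11.9 and 235 CPM with tumour and did not pass the test (adjusted p = 0.279). Tumour samples 1 to 3 were within or below the tumour-free range of Ccr2. Of 17 genes tested, 5 were called: Itgal (3.28), Ms4a4c (2.72), Ly6i (3.95), Itga4 (2.46) and Fn1 (5.04). The integrin Itga4, which is high on recruited macrophages and low on microglia, measured 2.48, 2.55 and 1.77 CPM without tumour and 11.2, 6.02, 6.47 and 26.3 CPM with tumour, and its call was lost without tumour sample 4 (adjusted p = 0.156) or without any of the tumour-free samples. The count was 3 without tumour sample 4 or tumour-free sample 1 or 3, and 1 without tumour-free sample 2.

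Dendritic cell receptors were also highest in tumour sample 4. Flt3 measured 1.77, 2.22 and 1.06 CPM without tumour and 2.64, 1.69, 2.16 and 26.8 CPM with tumour and Cd209a 1.49, 4.70 and 0.989 CPM without tumour and 2.004, 4.42, 2.40 and 70.1 CPM with tumour. Flt3 and Cd209a did not pass (adjusted p = 0.0587 and 0.205), and 1 of 10 dendritic cell genes was called. Ccr7, the homing receptor of migratory dendritic cells, measured 0.424, 0 and 0.283 CPM without tumour and 7.49, 5.27, 1.08 and 51.9 CPM with tumour and was called (log2 fold change 6.08 ± 1.64 (SE), adjusted p = 0.014), a call lost without tumour sample 4 (adjusted p = 0.0838) or without tumour-free sample 2 or 3. Ccr7, P2ry10, Ifitm1 and Kmo were among the 15 genes with the largest rises, and each was highest in tumour sample 4. P2ry10 measured 0.424, 0.196 and 0.141 CPM without tumour and 0.844, 1.13, 0.8291 and 81.8 CPM with tumour, Ifitm1 1.49, 1.76 and 1.77 CPM without tumour and 3.06, 10.5, 3.73 and 484 CPM with tumour, and Kmo 0.0707, 0.457 and 0.212 CPM without tumour and 1.37, 2.44, 1.16 and 49.95 CPM with tumour. Without tumour sample 4 the adjusted p values of these 3 genes were 0.569, 0.431 and 0.215, and their calls were also lost without any 1 of the tumour-free samples. Of the 825 higher genes, tumour sample 4 was over 2 times the mean of tumour samples 1 to 3 for 127 (15.4%), against 6.16% of all genes tested. The part of other cells in tumour sample 4 in these rises was not tested.

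**Figure D3:**
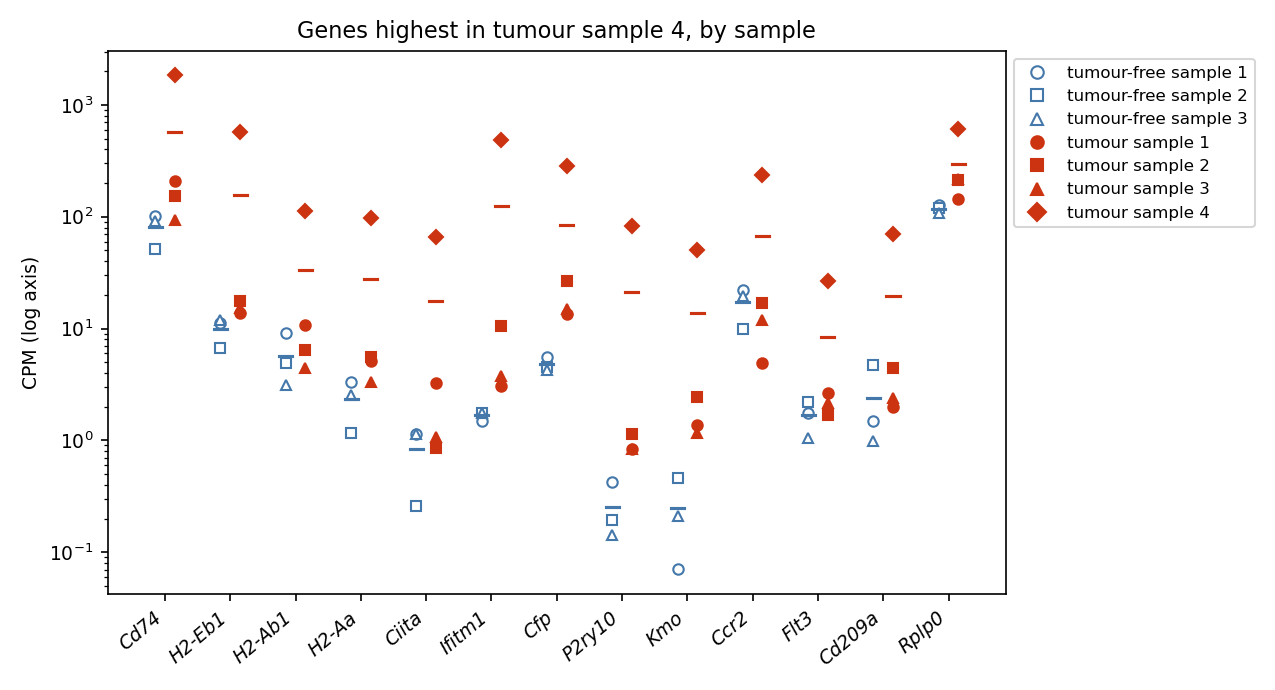
CPM of 13 genes in each sample on a log axis, with blue open symbols for the 3 tumour-free samples, red filled symbols for the 4 tumour samples and bars for group means. Tumour sample 4 (diamonds) is the highest of the 7 samples for every gene shown, and tumour samples 1 to 3 lie close to or within the tumour-free range for Cd74, H2-Ab1, Ciita, Flt3, Cd209a and Ccr2.

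Border macrophage genes, which mark macrophages of the meninges and vessels, summed to 163, 106 and 144 CPM without tumour and 539, 869, 483 and 873 CPM with tumour. Of these sums, Colec12 alone held 568.8 CPM in tumour sample 2 and 288 to 321.3 CPM in the other tumour samples. Siglec1 measured 9.62, 2.55 and 10.8 CPM without tumour and 106, 120.3, 88.1 and 111 CPM with tumour (log2 fold change 3.79 ± 0.73 (SE), adjusted p = 8.08e-04) and Colec12 rose by 2.15. With Folr2 and Ms4a7 they made 4 of 12 genes called, or 2 without tumour-free sample 2 or 3. Cd163 (-0.77) and Lyve1 (-1.97), which define these cells, did not pass, nor did Mrc1 (2.76, adjusted p = 0.0598). Of 5 B cell genes tested 1 was called higher, of 12 endothelial and mural genes 1, and of 24 ribosomal protein genes none, with a median of 0.68. None of 12 granulocyte genes tested was called, and S100a8 ran from 0 to 9.40 CPM over the 7 samples.

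Mitosis genes were low in all samples but higher with tumour. Summed over 23 genes they measured 17.3, 24.2 and 26.5 CPM without tumour and 66.1, 100.2, 116 and 271 CPM with tumour. Mki67, a marker of cycling cells, measured 0.424, 0.0653 and 0.212 CPM without tumour and 6.12, 5.55, 7.55 and 25.3 CPM with tumour (log2 fold change 5.53 ± 1.06 (SE), adjusted p = 7.20e-04). Top2a, which untangles chromosomes, measured 0.424, 0.849 and 0.424 CPM without tumour and 4.11, 10.1, 12.1 and 41.8 CPM with tumour (log2 fold change 4.88 ± 1.02 (SE), adjusted p = 0.00175). Both genes were above the tumour-free range in every tumour sample and highest in sample 4. Of the 23 genes, 10 rose (median 2.85), among them Bub1 (4.36), Kif11 (4.17) and Ccnb1 (4.15). The count was 5 without tumour sample 4 and 3, 4 and 5 without tumour-free samples 1, 2 and 3.

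DNA replication genes were called in 5 of 25 cases (median 1.21). Mcm5, a subunit of the replicative helicase, measured 11.7, 16.1 and 16.4 CPM without tumour and 19.9, 55.5, 41.3 and 123 CPM with tumour (log2 fold change 2.02 ± 0.63 (SE), adjusted p = 0.0378), and Rrm2, the ribonucleotide reductase subunit, 0.283, 1.57 and 0.636 CPM without tumour and 1.58, 11.002, 9.87 and 18.2 CPM with tumour (log2 fold change 3.59 ± 1.02 (SE), adjusted p = 0.0209). Tumour sample 1 was close to the tumour-free samples for both and tumour sample 4 was the highest. The count was 0, 1 and 1 without tumour-free samples 1, 2 and 3, 1 without tumour sample 4, 3 without tumour sample 2 and 8 without tumour sample 1.

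Targets of p53 were compared because the radiotherapy label and the titles of the tumour-free samples disagree. As the mean of log2(CPM + 0.5) over 25 targets, tumour-free samples 1 to 3 were at 4.86, 4.95 and 4.87 and tumour samples 1 to 4 at 5.73, 5.67, 5.63 and 5.44. The 4 tumour-free microglia samples without 5x2 in the title lay between 3.41 and 4.02. They included 1 sample with 985423 counts and 1 with 30933 genes detected. The 3 tumour-free samples titled 5x2 D5 lay between 4.53 and 4.68, and the 10 unirradiated tumour samples between 4.57 and 5.08. The tumour-free samples titled 5x2 D3 were therefore above the other tumour-free microglia and below the tumour samples of the same title. Phlda3, a p53-induced inhibitor of Akt, measured 11.3, 13.8 and 26.2 CPM without tumour and 22.8, 21.3, 29.8 and 9.82 CPM with tumour, and ranged from 0 to 1.10 CPM in tumour-free microglia without 5x2 in the title. Groups were not reassigned on these values.

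Within the comparison, 8 of the 25 p53 targets were higher with tumour and none lower (median 0.79). Pmaip1, which encodes the cell death protein Noxa, measured 21.1, 22.99 and 19.3 CPM without tumour and 279.8, 269, 165 and 206 CPM with tumour (log2 fold change 3.44 ± 0.37 (SE), adjusted p = 6.66e-07). In unirradiated tumour microglia Pmaip1 was at 146 to 232 CPM at the small stage and 118 to 185 CPM at the large stage, ranges that overlap with that of the 4 tumour samples here. Cdkn1a, the cell cycle inhibitor p21, measured 739.8, 534 and 554 CPM without tumour and 1618, 1589.6, 1205 and 1329 CPM with tumour (log2 fold change 1.24 ± 0.39 (SE), adjusted p = 0.0433), and Mdm2, the ubiquitin ligase of p53, 148, 146 and 143 CPM without tumour and 344, 301, 232 and 167 CPM with tumour (log2 fold change 0.84 ± 0.23 (SE), adjusted p = 0.015). Neither gene overlapped between the groups, but the call of Cdkn1a was lost on leaving out any 1 of the 7 samples (adjusted p from 0.0524 to 0.193) and that of Mdm2 on leaving out any but tumour sample 3 or 4. Plk3 (1.96), Plk2 (1.36), Sesn2 (1.31), Ccng1 (1.01) and Btg2 (0.78) rose too. Phlda3 (0.29), Bax (-0.07), Bbc3 (-0.13) and Eda2r (0.01) did not pass. The count was 3, 2 and 3 without tumour-free samples 1, 2 and 3, 3 without tumour sample 1 or 2 and 5 without tumour sample 3.

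**Figure D4:**
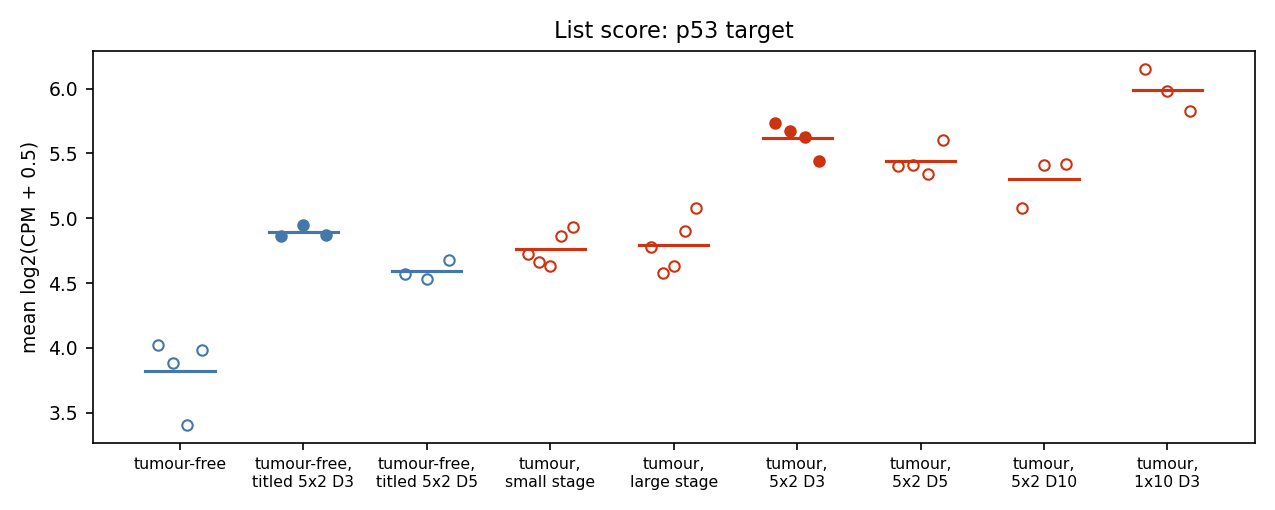
Mean of log2(CPM + 0.5) over 25 p53 targets in each of the 34 microglia samples by group, with bars for group means. Blue marks tumour-free and red tumour-bearing groups, and filled circles the 7 samples compared. The 3 tumour-free samples titled 5x2 D3 lie between 4.86 and 4.95 and the 4 tumour samples of 5x2 D3 between 5.44 and 5.73.

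Iron and oxidative stress genes rose in 6 of 20 cases and 1 fell (median 0.55). Hmox1, which degrades haem, measured 123, 95.9 and 170.2 CPM without tumour and 668, 1702, 1132 and 2757 CPM with tumour (log2 fold change 3.59 ± 0.61 (SE), adjusted p = 2.25e-04). Fth1, the ferritin heavy chain, measured 1106, 1139 and 1336 CPM without tumour and 2784, 4096, 2817 and 4057 CPM with tumour (log2 fold change 1.53 ± 0.26 (SE), adjusted p = 3.02e-04). Both were above the tumour-free range in every tumour sample, with Hmox1 lowest in sample 1 and highest in sample 4. The oxidase subunit Cybb (3.32) and the redox enzymes Srxn1 (2.65), Txnrd1 (1.24) and Prdx1 (1.22) rose as well. Nqo1 fell, from 0.566, 20.7 and 41.6 CPM to between 0.188 and 0.989 CPM, but its tumour-free sample 1 lay within the tumour range. Of 21 glycolysis and hypoxia genes, 4 rose (median 0.72): Egln3 (4.77), Pfkfb3 (1.44), Hif1a (1.40) and Slc2a1 (0.93). The call of Slc2a1 was lost without tumour sample 2 or 4 or any 1 of the tumour-free samples (adjusted p from 0.0704 to 0.198), and the list's count was 3 in each of these fits. The glycolytic enzymes proper, such as Pgk1 (0.55) and Ldha (0.52), did not pass.

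Immediate early genes, which also respond to tissue dissociation, were called higher in 4 of 20 cases and lower in 1 (median 0.70). Nr4a1 measured 66.7, 55.98 and 122 CPM without tumour and 1003, 1241, 619.7 and 628 CPM with tumour (log2 fold change 3.42 ± 0.38 (SE), adjusted p = 7.58e-07), and Atf3 rose by 2.09, while Fos (0.66), Jun (-0.28), Junb (0.32) and Egr1 (0.09) did not pass. The heat shock gene Hspa1b was lower with tumour, at 110.1, 122 and 989 CPM without tumour and 26.997, 33.9, 47.8 and 107 CPM with tumour (log2 fold change -2.91 ± 0.82 (SE), adjusted p = 0.0201). Its fall rested on tumour-free sample 3, without which the log2 fold change was -1.11 (adjusted p = 0.527), and the call was also lost without tumour sample 1, 2 or 3.

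Astrocyte transcripts were lower with tumour. Of 12 astrocyte genes, 11 fell (median log2 fold change -6.01), and Gfap was the exception (-0.03). Gja1, the astrocytic gap junction protein connexin 43, measured 78.4, 484 and 227 CPM without tumour and 1.48, 0.846, 3.23 and 1.13 CPM with tumour (log2 fold change -7.28 ± 1.11 (SE), adjusted p = 7.69e-05). Slc1a3, a glutamate transporter, measured 341, 1617 and 1161 CPM without tumour and 225, 184, 236 and 201 CPM with tumour (log2 fold change -2.30 ± 0.38 (SE), adjusted p = 2.05e-04). In both genes tumour-free samples 2 and 3 were far above sample 1, which was itself above every tumour sample. Summed over the 12 genes, tumour-free samples 1 to 3 held 742, 4045 and 2637 CPM and the tumour samples 244, 228, 318 and 235 CPM. Tumour-free microglia without 5x2 in the title held 1479.8 to 2752 CPM, above every tumour sample of the comparison.

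Choroid plexus transcripts differed widely among the tumour-free samples. Enpp2, the secreted lysophospholipase autotaxin made by choroid plexus, measured 205, 6132 and 11079 CPM without tumour and 6.54, 7.80, 0.580 and 0.283 CPM with tumour (log2 fold change -10.61 ± 2.35 (SE), adjusted p = 0.00318). Sostdc1, a secreted BMP antagonist, measured 3.39, 268 and 527 CPM without tumour and 0.105, 0.0940, 0 and 0 CPM with tumour, and Clic6, a chloride channel protein, 2.62, 237 and 485 CPM without tumour and 0.316, 0.0940, 0 and 0.0707 CPM with tumour (log2 fold change -10.97 ± 1.96 (SE), adjusted p = 3.66e-04). Tumour-free sample 1 was at a small part of samples 2 and 3 for all 3. Aqp1, the water channel of the choroid plexus, measured 0.141, 37.3 and 105 CPM without tumour and was at 0 in all 4 tumour samples. Its level in tumour-free sample 1 was itself under 3 counts, so that its fall rests on samples 2 and 3. Dlk1, a membrane protein of the EGF-repeat family, and the kinase Dmpk were at 0 in the tumour samples too. The 15 largest falls also included the growth factors Igf2 and Gdf10, and the potassium channel subunit Kcne2, and in all 15 tumour-free sample 1 was the lowest of its group. Summed over 12 choroid plexus genes, a list chosen after the values were seen and not tested, levels were 435, 10532 and 17803 CPM without tumour and 20.8, 22.2, 2.57 and 1.98 CPM with tumour. With tumour-free sample 1 as the only reference, a choice made after the values were seen that assumes it varies like the other groups, 4 genes were called lower and 30 higher, and Enpp2 changed by -5.79 (adjusted p = 0.529). The part of other cells in the falls was not tested.

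**Figure D5:**
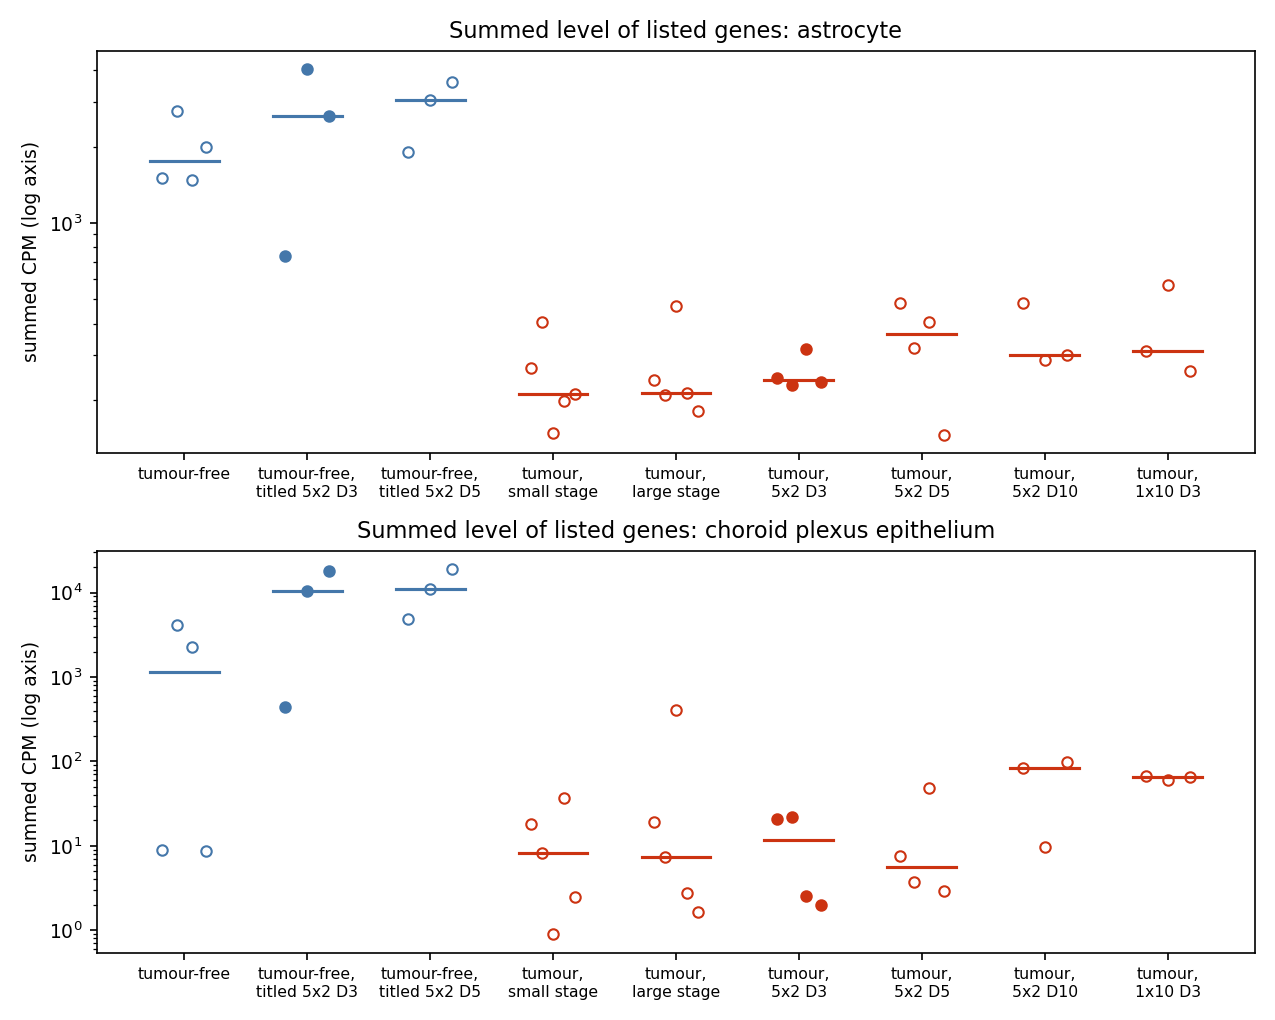
Summed CPM of 12 astrocyte genes (top) and 12 choroid plexus genes (bottom) in each of the 34 microglia samples by group, on log axes, with bars for group medians. Blue marks tumour-free and red tumour-bearing groups, and filled circles the 7 samples compared. Tumour-free sample 1 of 5x2 D3 holds 742 CPM of astrocyte genes and 435 CPM of choroid plexus genes, below samples 2 and 3 in both panels.

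Oligodendrocyte genes fell in 6 of 11 cases (median -2.84), and for the abundant myelin genes the 3 tumour-free samples were alike. Mbp, the myelin basic protein, measured 431, 465 and 324 CPM without tumour and 43.1, 72.1, 84.8 and 67.4 CPM with tumour (log2 fold change -2.60 ± 0.32 (SE), adjusted p = 4.57e-06), and Mobp 100.5, 92.4 and 49.5 CPM without tumour and 5.69, 10.5, 16.1 and 2.61 CPM with tumour (log2 fold change -3.21 ± 0.61 (SE), adjusted p = 7.17e-04). Summed over 12 genes, the tumour-free samples held 794, 847 and 668 CPM and the tumour samples 171, 233, 253 and 198 CPM. Olig1 and Olig2, transcription factors of the lineage, were also called lower, but tumour-free sample 1 was far below samples 2 and 3, with 3.18, 13.9 and 10.5 CPM of Olig1 and 0, 2.87 and 3.39 CPM of Olig2. The count was 3 on leaving out tumour-free sample 2 or 3 or tumour sample 1, 2 or 3. Of 12 neuronal genes 1 fell. Of 5 tested genes of epithelial cells, listed as tumour cell markers, none rose and 2 fell, Krt18 and Krt8. The median log2 fold change of the list was 3.65. In 1 of the 5 a whole group was at 0, and with its change bounded at 3 counts per sample the median was 0.56. Leaving out 1 sample gave medians from -0.154 to 4.055. Krt18 measured 0.424, 42.8 and 82.9 CPM without tumour and 0.844, 0.470, 0 and 0.141 CPM with tumour, and tumour-free sample 1 lay within the tumour range. Summed over the 10 listed genes, levels were 1.06, 52.5 and 101 CPM without tumour and 5.17, 2.54, 0.332 and 40.6 CPM with tumour. The tumour-free samples have a tumour stage of none, so the list was not specific to tumour cells here, and its falls say nothing about them. The call of Krt8 was lost without tumour-free sample 2 or 3 or tumour sample 2, 3 or 4 (adjusted p from 0.0949 to 0.229). The adhesion genes Epcam (4.12, adjusted p = 0.182) and Cdh1 (3.65, adjusted p = 0.224) did not pass and were highest in tumour sample 4. Of 19 TGF-beta signalling genes, 2 rose and 3 fell (median -0.11). Id2 (1.93), a target of the pathway, and Skil (1.11), which restrains it, rose, and the call of Skil was lost without tumour sample 1 or any 1 of the tumour-free samples (adjusted p from 0.0524 to 0.189). Tgfb2 (-6.15), Tgfbr3 (-5.88) and Itgb8 (-5.79) fell, with 0.212, 0.707 and 3.47 CPM in tumour-free sample 1 against 17.5, 24.8 and 31.5 CPM in sample 2. Tgfb1 (0.04), Tgfbr1 (-0.28) and Smad3 (-0.56) did not pass.

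The same contrast was made in 2 sets of samples that share none with it. For 5x2 day 5 (4 tumour samples against 3 tumour-free samples titled 5x2 D5), 1305 genes were higher (6.61%) and 1583 lower (8.01%). In samples without 5x2 in the title (10 unirradiated tumour samples of the small and large stages against 4 tumour-free samples), 2383 were higher (12.1%) and 4040 lower (20.5%). Leaving out 1 sample gave 1370 to 2316 calls in all on day 5, with 1370 without tumour-free sample 3 and 1887 without tumour sample 2 of that day, and 4076 to 7123 in the samples without 5x2 in the title, with 4076 without tumour-free sample 3. Of the 825 genes higher on day 3, 654 were also higher on day 5, 79.3% of the day 3 list and 50.1% of the day 5 list, and 864 of the 1009 lower genes were also lower (85.6% and 54.6%), with none called the opposite way. Without radiotherapy 642 of the higher genes were shared (77.8% and 26.9%) and 716 of the lower (71.0% and 17.7%). The tumour-free samples of these sets also held transcripts of other brain cells. On day 5, choroid plexus genes summed to 4906 to 19044 CPM without tumour and 2.89 to 48.2 CPM with tumour. Astrocyte genes summed to 1905 to 3591 CPM and 146 to 482 CPM. Tumour-free samples without 5x2 in the title held 8.74 to 4147 CPM of choroid plexus genes. The part of other cells in the shared falls was not tested.

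Each of the 3 comparisons has its own tumour-free samples. Disease-associated genes rose in 21 of 24 cases on day 3, 16 on day 5 and 19 without radiotherapy, with medians of 1.75, 1.63 and 2.05. Interferon-stimulated genes rose in 28, 25 and 25 of 30 cases, with medians of 2.60, 2.51 and 2.22, and chemokines in 12, 11 and 13 of 16. Mitosis genes rose in 10, 22 and 16 of 23 cases, with medians of 2.85, 3.34 and 2.28. MHC class II genes rose in 3, 0 and 0 of 10 cases, with medians of 1.82, 2.11 and 0.12. Spp1 changed by 5.83, 5.45 and 6.77, Apoe by 2.56, 1.78 and 2.70, and Il1b by 4.18, 4.18 and 3.60. Astrocyte genes fell in 11 of 12 cases in each comparison, with medians of -6.01, -5.74 and -4.87.

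No gene's tumour effect was called different between day 3 and day 5 (0 of 19754, 0%) by the interaction test of edgeR. At an unadjusted p under 0.05 there were 388 genes (1.96%), and DESeq2's Wald test called 13. With 4 against 3 samples on each day, 0 calls do not show that the effects were equal. Between day 3 and the samples without radiotherapy again 0 genes were called (0%), with 3466 at an unadjusted p under 0.05 (17.5%), 567 called by DESeq2, and 2 by limma voom. In all, 5 genes were called in opposite directions in the separate comparisons. Stat4, which transmits interleukin 12 signals, changed by 5.77 on day 3 and -2.55 without radiotherapy, Hgf by 3.08 and -1.53, Map4k1 by 2.70 and -1.51, A230103L15Rik by 6.61 and -4.30, and Ezr, an actin linker, by -2.02 and 1.33. The test of the difference itself gave an adjusted p of 0.159 for each of them, and they were named after their values were seen. The tumour-free reference without 5x2 in the title included 1 sample with 985423 counts and 1 with 30933 genes detected. Leaving out the latter gave 5 genes whose effect differed, and leaving out tumour-free sample 1 or 3 of day 3 gave 3 and 1.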

How the data were processed

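RNA was sequenced from microglia purified by flow cytometry, and the values analysed are counts per gene that the authors deposited in 1 table of 49585 genes and 108 samples. The build GRCm38 and the tools TopHat2 2.0.14, HTSeq, FastQC and DESeq2 1.18.1 are listed per the submitters' processing notes. Neither the strand setting nor the annotation release is stated in the sources at hand. Gene symbols are those of the deposited counts. Of the gene identifiers, 49326 were found in GENCODE M21, which gave coordinates and gene types. Mitochondrial genes held 0 counts in all samples.

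Counts were tested in R 4.3.3 with edgeR 4.0.16 (filterByExpr with a minimum count of 10 and a minimum total of 15, TMM scaling, quasi-likelihood test with 1 mean per group over all 34 microglia samples, Benjamini-Hochberg adjustment). Total counts of the 34 samples lay between 985423 and 18642747. Levels are counts per 1000000 (CPM) with TMM factors, and list levels are means of log2(CPM + 0.5). Sample groups came from titles. Alternatives were DESeq2 1.42.0, limma 3.58.1 (voom with sample weights), other scalings and filters, a replicate block, and leaving out samples. The fitting script was tested on simulated data. Figures were drawn with matplotlib 3.10.9.

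The genes named were the 15 with the largest log2 fold change each way among those called, with groups that do not overlap and a higher group averaging at least 10 CPM, up to 5 per list, and 20 others set by name. Further members are named beside the counts of their lists. The samples compared, the gene lists and the rule were chosen with earlier results of these data known. Promoter sequences are from RefSeq on GRCm38.p6. Some genes of the lists are not reported here.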

Additional observations from a re-analysis of the deposited data

Results flagged for a closer look

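Of 149 named genes with values in the 4 tumour samples, 27 had 1 sample far from the other 3 by Dixon's criterion. The criterion flags about 1 in 20 groups of independent values by chance. That rate does not apply here, because the genes were named partly by these same values and may vary together within a sample. In 20 of the 27 that sample was tumour sample 4, which was higher in each.

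Among genes of antigen presentation, tumour sample 4 held 1833 CPM of Cd74 against 92.7 to 209.5 CPM, 572.3 CPM of H2-Eb1 against 13.81 to 17.77 CPM, 97.36 CPM of H2-Aa against 3.32 to 5.55 CPM, 112.1 CPM of H2-Ab1 against 4.48 to 10.65 CPM, and 65.5 CPM of the class II transactivator Ciita against 0.846 to 3.27 CPM. Of receptors and enzymes of other myeloid or lymphoid cells, it held 234.7 CPM of Ccr2 against 4.96 to 17.02 CPM, 81.82 CPM of P2ry10 against 0.8291 to 1.13 CPM, 51.93 CPM of Ccr7 against 1.08 to 7.49 CPM, 49.95 CPM of Kmo against 1.16 to 2.45 CPM, 26.85 CPM of Flt3 against 1.69 to 2.64 CPM, and 70.09 CPM of Cd209a against 2.004 to 4.42 CPM. It also held 484.1 CPM of Ifitm1 against 3.06 to 10.53 CPM, 283.3 CPM of properdin (Cfp) against 13.39 to 26.42 CPM, 152.8 CPM of the lectin Clec4n against 9.70 to 33.38 CPM, and 6.359 CPM of Pdcd1lg2 against 0.105 to 0.564 CPM. The cycling marker Mki67 was at 25.29 CPM against 5.55 to 7.55 CPM. The epithelial adhesion genes Epcam and Cdh1 were at 14.06 and 25.93 CPM against 0.0829 to 0.633 and 0.0829 to 0.752 CPM, and the ribosomal genes Rps14 and Rplp0 at 382.5 and 607.1 CPM against 106.2 to 124.2 and 142.9 to 215.7 CPM.

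Tumour sample 1 was apart for 4 genes. It was low in Ccl2 (373.4 CPM against 490.5 to 498.1 CPM) and Grn (2327 CPM against 3263 to 3324 CPM), and high in H2-Q7 (78.57 CPM against 19.18 to 28.27 CPM) and Skil (1360 CPM against 520.6 to 658 CPM). Tumour sample 2 was high in Isg15 (54.54 CPM against 40.54 to 42.92 CPM) and Colec12 (568.8 CPM against 288 to 321.3 CPM) and low in Cd79b (5.924 CPM against 13.92 to 14.43 CPM).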

How the results depend on the processing

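Of the 1834 genes called on day 3 (825 higher, 1009 lower), DESeq2 gave 2760 (1254 higher), limma voom with sample weights 6180 (2732 and 3448), only genes of 10 CPM or more 1016 (425 lower), and the fit without the 5 samples of low depth or over 30000 genes 3339 (1365 and 1974). The 2 compared groups fitted alone gave 2302 of 14515 genes tested (1162 higher and 1140 lower). Leaving out 1 sample gave 883 to 1745 genes, 398 to 760 higher and 470 to 1154 lower. In alternatives added after seeing the data, tumour-free sample 1 alone gave 34 (30 and 4), and tumour samples 2 and 3 alone gave 780 (431 and 349). With DESeq2's size factors in edgeR 41.2% of calls were higher, against 45.0%. For day 5 (2888 genes), the same settings gave 1504 at 10 CPM or more, 6679 by voom, 5223 without those samples and 1370 to 2316 without 1 sample. For samples without 5x2 in the title (6423), they gave 3373, 2451, 2787 and 4076 to 7123, with 3461 for the compared groups alone and 4007 with the replicate block. For the difference between day 3 and day 5 (0), DESeq2 gave 13. For day 3 against samples without 5x2 in the title (0), DESeq2 gave 567, voom 2 and leaving out 1 sample 0 to 5. The causes were not tested.

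Of 192 named genes, 146 were called and 21 of these kept their call in every setting. With tumour-free sample 1 alone, the fitted log2 fold changes of Tgfb2 (0.31), Olig2 (1.48) and Krt8 (4.65) reversed. Whether replicate numbers pair the samples was not settled. Deviations from the group means correlated at -0.136, -0.0588 and -0.113 between same-numbered day 3 samples. Between differently numbered ones they correlated at -0.0632 to 0.121, and so few samples cannot decide it. A replicate block gave 1338 genes on day 3. Genes at 0 or a few counts limit the size of the falls, and 3 tumour-free samples limit every comparison.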
